A study of Homo sapiens with 9 samples.

Results

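Clone A1 derives from U2-OS, a human osteosarcoma cell line in wide use, and overexpresses NCBP2, the cap-binding subunit of the nuclear cap-binding complex. It was compared with U2-OS clones that carry the empty vector. The comparison uses 6 of the 9 libraries of the series, chosen by their labels: clone A1 in replicates A, B and C, and 3 vector libraries, 1 from each of 3 separate vector clones (replicate A from vector clone 2, B from vector clone 3 and C from vector clone 1). The other 3 libraries come from clone A4, a second NCBP2 clone, and serve to share the estimate of the spread and to test whether a difference is particular to clone A1. All clones were grown alike in DMEM with serum, the vector clones were obtained in the same way as the NCBP2 clones, and ribosomal RNA was removed before library preparation. The labels do not say whether the libraries of clone A1 are separate cultures, so p-values measure only the spread between these libraries. Clone A1 is 1 clone, and what NCBP2 does to these cells cannot be told apart from how this clone differs from the vector clones for any other reason.

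NCBP2 pairs with NCBP1 to bind the methylated cap that starts each RNA made by RNA polymerase II. Through partners such as SRRT and PHAX, the complex links the cap to splicing, 3′ end formation, export and decay, including for small nuclear RNAs and for the replication-dependent histone mRNAs, which end in a stem-loop instead of a poly(A) tail. Histone genes lie in clusters and are transcribed mainly in S phase, often in pairs that start from a shared stretch of DNA.

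Gene-strand counts ran between 29234022 and 50554080 per library, with 29234022, 37012934 and 42928585 in the clone A1 libraries. Clone A1 replicate A lies apart from the rest. Its log2 CPM correlated with those of the other 8 libraries at Pearson's r of 0.899 to 0.928 across genes, against 0.947 to 0.970 among the others, as a description over genes that are not independent replicates. It also had the lowest count in genes, the fewest genes detected (21823, against 25390 to 29787) and the highest share of uniquely aligned reads outside genes, 51.1%. Results on called genes and segments are therefore given with and without it, and those on gene lists where the counts differ. CPM is the count of a gene scaled by the TMM-adjusted size of its library, and a gene is called past the threshold at a Benjamini-Hochberg adjusted p under 0.05 over all genes tested by edgeR's quasi-likelihood test. CPM is not scaled by gene length, so levels are compared between libraries and not between genes.

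NCBP2, on chromosome 3 (196935402 to 196942594, minus strand, GRCh38), was higher in every clone A1 library than in every vector library. The clone A1 libraries, in the order of replicates A to C, held 299, 348 and 305 CPM, against 98.4, 90.6 and 98.3 CPM with the empty vector, and the groups did not overlap. The log2 fold change, clone A1 minus vector, was 1.73 ± 0.24 (SE; edgeR adjusted p = 0.0327), and without replicate A it was 1.78 ± 0.25 (edgeR adjusted p = 0.03597). It no longer passed when 1 of clone A1 replicates B and C, clone A4 replicate A or any vector library was left out (log2 fold change 1.65 to 1.75, edgeR adjusted p up to 0.148). An exact two-sided permutation test over the 6 libraries gave p = 0.1, the smallest that 3 against 3 allows. In clone A4 NCBP2 was at 796, 1035 and 456 CPM. The difference between the clones, -1.26 ± 0.24, missed the threshold (edgeR adjusted p = 0.0764). Of the 21 tested members of the cap-binding complex and its partners, NCBP2 alone passed the threshold in either fit. NCBP1, its binding partner, was at 155, 141 and 156 CPM in clone A1, against 156, 127 and 167 CPM with the empty vector, a log2 fold change of 0.0073 ± 0.15.

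In all, 14 of 21682 genes passed the threshold (0.0646%), 8 higher (0.0369%) and 6 lower (0.0277%) in clone A1. Without replicate A, 12 of 22976 did (0.0522%), 6 in each direction (0.0261% each), and 9 genes passed in both fits. The count rests on single libraries: it was 3 once clone A1 replicate B, vector replicate A or vector replicate C was left out. Omitting clone A1 replicate C left 4 genes, omitting replicate A of clone A4 left 6 and omitting its replicate B left 9. DESeq2 gave 274 genes and voom with a weight per library gave 297. H2AC8, H2BC8 and LINC01029 passed under all 18 alternatives tried for them. Against clone A4, 35 genes passed (0.161%). The 17 genes of either fit are shown by library in the plot of their CPM. Clone A1 and vector did not overlap in CPM in 14.2% of all genes tested. Called genes were picked by the same libraries, so a lack of overlap in them is a description.

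**Figure D1:**
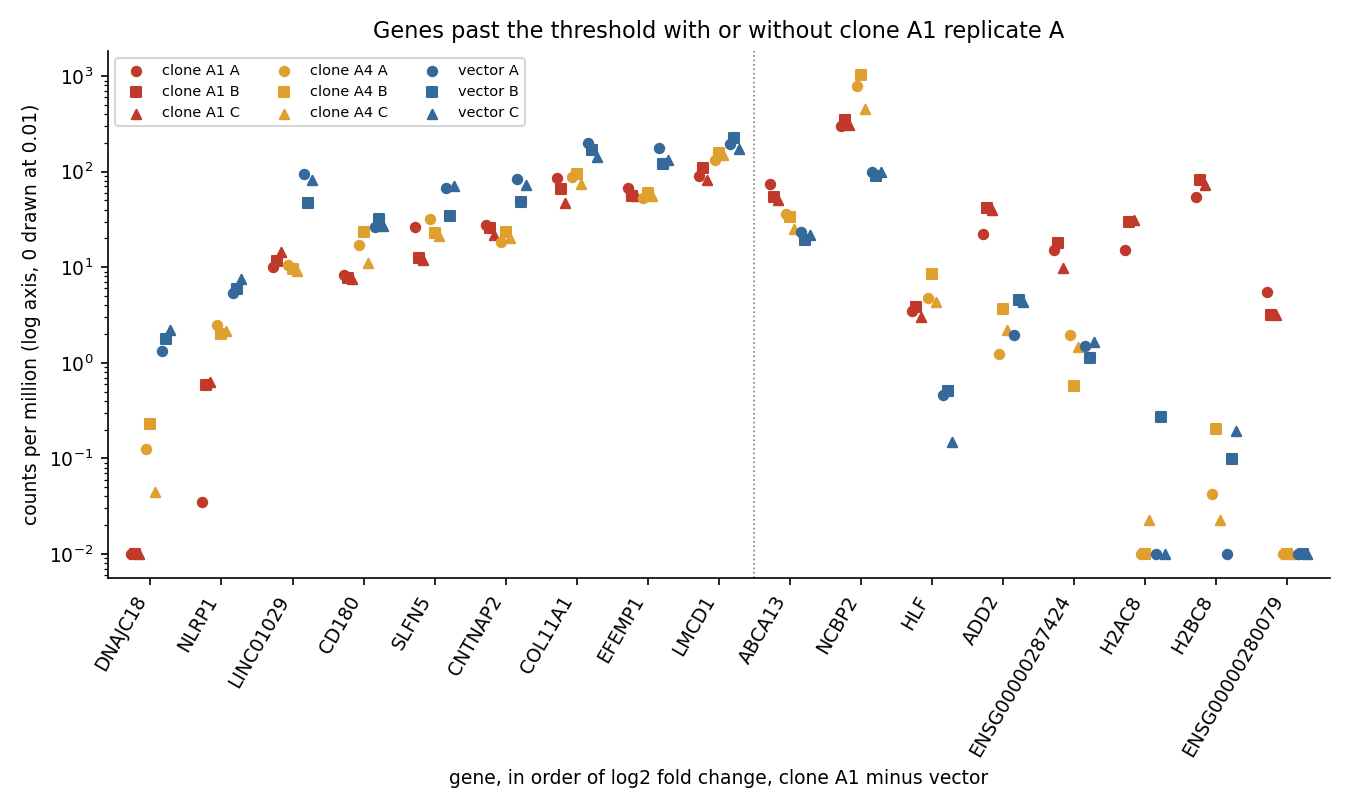
CPM (log axis, with 0 drawn at 0.01) in each of the 9 libraries for the 17 genes past the threshold with or without clone A1 replicate A, in order of log2 fold change against vector. Points are libraries, colours are groups and shapes are replicates. For each of these genes the clone A1 libraries all lie on 1 side of the vector libraries, as in 14.2% of all 21682 genes tested. The genes were picked for differing between these libraries, so this adds no support. For H2AC8, H2BC8, ADD2 and ENSG00000287424 the clone A4 points lie with the vector points.

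The histone genes H2AC8 and H2BC8 stood out by their size of change. They encode core histones H2A and H2B and sit next to each other on chromosome 6, H2AC8 at 26216921 to 26217437 on the plus strand and H2BC8 at 26216200 to 26216688 on the minus strand. They are annotated on opposite strands, pointing away from each other, and the 232 bases between their annotated starts are shown here because they hold the region upstream of both genes. RefSeq (GRCh38.p14) gives this stretch, chr6:26216689-26216920 on the strand of H2AC8, with capitals for matches on either strand to 3 promoter motifs. The first is TATAAA, the box known for placing the start of transcription. The second, known to be bound by the factor NF-Y, is CCAAT. The last is the octamer ATTTGCAT, bound by POU2F1. No matches overlap.
H2BC8 to H2AC8: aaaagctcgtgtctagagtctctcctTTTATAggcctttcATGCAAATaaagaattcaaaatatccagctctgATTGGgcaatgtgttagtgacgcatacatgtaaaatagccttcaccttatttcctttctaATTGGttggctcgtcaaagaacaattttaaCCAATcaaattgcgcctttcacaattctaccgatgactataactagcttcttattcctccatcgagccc

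Of these motifs, TATAAA and ATTTGCAT match on the strand of H2BC8 and CCAAT on both strands. Among all 34943 RefSeq promoter windows of 300 bases, 11.6% hold TATAAA, 34.6% CCAAT, 1.77% ATTTGCAT and 0.186% all of them. Of the 68 windows of replication-dependent histone genes 20 hold all of them, so a match is common in this family, and it is a description of letters and not a site.

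H2BC8 was at 53.8, 81.3 and 72.3 CPM in the clone A1 libraries, against 0, 0.0976 and 0.195 CPM with the empty vector. The latter rest on 0, 5 and 8 counts, against 1528, 3022 and 3077 in clone A1. H2AC8 was at 15.2, 30.01 and 30.9 CPM in clone A1. In the vector libraries it had 0, 14 and 0 counts. Both genes were near 0 in the vector clones and counted in every clone A1 library. The log2 fold changes were 9.47 ± 0.65 for H2BC8 (edgeR adjusted p = 9.41e-05) and 7.98 ± 0.85 for H2AC8 (edgeR adjusted p = 0.00448). Without replicate A they were 9.63 and 8.24. The size for H2AC8 was 7.40 to 13.04 with 1 library left out, and 13.04 without vector replicate B, which holds all 14 vector counts, so that it then depends on the prior count. Clone A4 was near 0 as well, with 2, 9 and 1 counts of H2BC8 and 1 count of H2AC8 over its libraries. Against clone A4 the differences were 9.56 ± 0.66 for H2BC8 (edgeR adjusted p = 4.55e-05) and 11.27 ± 1.10 for H2AC8 (edgeR adjusted p = 0.000974).

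No other replication-dependent histone gene was called. Of 68 such genes 40 were tested, and H2AC8 and H2BC8 were the ones past the threshold. At an unadjusted p under 0.05, 4 were higher and 0 lower (4 and 1 of 41 without replicate A; over all genes 3.24% were higher and 4.27% lower), with H2AC14 (0.86) and H4C11 (0.90) beside the pair. The median of the list was 0.13, against -0.017 over all genes tested. Without replicate A it was 0.33, against 0.0048. With the GC and length offset described below and all libraries it was 0.21, against 0.014. The nearest histone genes on either side, H4C5 and H3C6, were at 68.6 against 61.9 CPM and at 1.11 against 2.01 CPM, clone A1 mean against vector mean. Histone genes as a class held 0.356 ± 0.104% of gene counts in clone A1 and 0.334 ± 0.0919% in the vector libraries (SD, n = 3 each; exact permutation p = 0.8). Among the genes that process histone mRNA (13 tested) none passed the threshold or an unadjusted p under 0.05. Genes of this family share near-identical coding stretches, and reads with several alignments entered no gene's count.

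Of the other genes that rose in clone A1, 3 also passed with and without replicate A. ADD2, beta-adducin of the membrane skeleton, was at 22.03, 41.5 and 40.04 CPM in clone A1, against 1.97, 4.49 and 4.29 CPM with the empty vector, and every clone A1 library lay above every vector library. Its log2 fold change was 3.27 ± 0.44 (edgeR adjusted p = 0.0274), and it was higher than in clone A4 by 3.86 ± 0.46 (edgeR adjusted p = 0.00497). ENSG00000287424, a long noncoding RNA gene on chromosome 4 (165647636 to 165757667, minus strand), was at 15.1, 17.9 and 9.88 CPM against 1.49, 1.11 and 1.66 CPM. It rose by 3.33 ± 0.44 on the log2 scale against vector (edgeR adjusted p = 0.0274) and by 3.42 ± 0.45 against clone A4 (edgeR adjusted p = 0.00805). ENSG00000280079, an unconfirmed transcript on chromosome 19 (20220597 to 20222186, minus strand), was counted 158, 117 and 134 times in clone A1 and 0 times in every vector and clone A4 library. Set against a floor of 3 counts over the group, that is at least 174-fold higher in clone A1 than in vector. Its neighbour ENSG00000279039, 10808 bases away, was at a mean of 1.02 CPM in clone A1 and 0 in the vector libraries and did not pass.

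HLF and ABCA13 passed in the fit with all libraries only. HLF, a transcription factor of the PAR bZIP family, was at 3.52, 3.82 and 2.99 CPM in clone A1, against 0.455, 0.507 and 0.146 CPM with the empty vector, with a log2 fold change of 3.19 ± 0.48 (edgeR adjusted p = 0.0438, and 0.0534 without replicate A). ABCA13, a very large transporter of the ABC family, was at 74.4, 54.2 and 50.04 CPM against 23.6, 19.5 and 21.8 CPM, a log2 fold change of 1.46 ± 0.22 (edgeR adjusted p = 0.0387, and 0.0534 without replicate A). For neither gene did the groups overlap, and without replicate A the log2 fold changes were 3.18 and 1.28. HLF was also high in clone A4, at 4.74, 8.49 and 4.299 CPM, and the clones did not differ past the threshold (A1 minus A4 -0.76 ± 0.43). ABCA13 had a clone A4 mean of 31.8 CPM, and the clones did not differ past the threshold (edgeR adjusted p = 0.235). With the GC and length offset described below they did (edgeR adjusted p = 0.0167).

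DNAJC18 and LINC01029 fell in both fits. DNAJC18, a J-domain co-chaperone on chromosome 5 (139408588 to 139444491, minus strand), was counted 0 times in every clone A1 library and 62, 91 and 91 times in the vector libraries, where it stood at 1.34, 1.78 and 2.22 CPM. At a floor of 3 counts over the group it was at least 63.6-fold lower in clone A1 (edgeR adjusted p = 0.0491, and 0.0473 without replicate A). In clone A4 it had 6, 10 and 2 counts, and the clones did not differ past the threshold (edgeR adjusted p = 0.308). LINC01029, a long noncoding RNA gene on chromosome 18 (77970637 to 77993731, minus strand), was at 9.99, 11.5 and 14.4 CPM in clone A1, against 95.6, 47.2 and 81.8 CPM with the empty vector. It fell by 2.64 ± 0.27 on the log2 scale (edgeR adjusted p = 0.00411), and by 2.52 without replicate A. Clone A4 was also low, at 10.6, 9.67 and 9.09 CPM, with a clone difference of 0.29 ± 0.26.

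EFEMP1, COL11A1 and CNTNAP2 were among the others that fell, each in at least 1 of the fits. EFEMP1, the matrix glycoprotein fibulin-3, was at 66.9, 55.3 and 55.5 CPM in clone A1, against 177, 121 and 133 CPM with the empty vector, with a log2 fold change of -1.27 ± 0.18 (edgeR adjusted p = 0.0354, and 0.0371 without replicate A). COL11A1, a fibrillar collagen of cartilage, was at 86.7, 65.6 and 46.7 CPM against 198, 169 and 144 CPM. It passed only without replicate A, at -1.59 ± 0.21 (edgeR adjusted p = 0.0301, and 0.0607 with it). CNTNAP2, an adhesion protein of the neurexin family, was at 27.4, 25.5 and 21.9 CPM against 84.4, 47.8 and 72.9 CPM, a log2 fold change of -1.45 ± 0.23 (edgeR adjusted p = 0.0491, and 0.0835 without replicate A). In none of these 3 genes did the groups overlap, and clone A4 means of 56.2, 85.97 and 20.7 CPM lay on the same side of the vector libraries. None of them differed between the clones past the threshold (edgeR adjusted p = 0.935, 0.802 and 0.841).

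CD180 and LMCD1 fell with all libraries, and NLRP1 and SLFN5 without replicate A. CD180, a Toll-like receptor relative known from B cells, was at 8.34, 7.66 and 7.57 CPM in clone A1, against 26.6, 32.3 and 27.1 CPM with the empty vector, with a log2 fold change of -1.87 ± 0.27 (edgeR adjusted p = 0.0364, and 0.0534 without replicate A). NLRP1, an inflammasome sensor, had 0.0352, 0.592 and 0.635 CPM against 5.39, 5.97 and 7.56 CPM. Replicate A held 1 count of it, and the gene passed without that library, at -3.35 ± 0.39 (edgeR adjusted p = 0.0125, and 0.0556 with it). SLFN5, a member of the interferon-inducible schlafen family, was at 26.5, 12.4 and 12.02 CPM against 68.02, 34.4 and 70.4 CPM, where replicate A was the highest of clone A1. It also passed only without replicate A, at -2.23 ± 0.32 (edgeR adjusted p = 0.03696, and 0.124 with it). LMCD1, a LIM-domain cofactor of transcription, was at 90.2, 109 and 82.3 CPM against 196, 225 and 172 CPM, a log2 fold change of -1.08 ± 0.17 (edgeR adjusted p = 0.0491, and 0.136 without replicate A). For all 4 genes clone A1 lay wholly below the vector libraries. Clone A4 means lay between, at 17.2, 2.22, 25.3 and 146 CPM for CD180, NLRP1, SLFN5 and LMCD1. The clones did not differ past the threshold (edgeR adjusted p = 0.235, 0.271, 0.807 and 0.287). With the GC and length offset described below, CD180 differed between them (edgeR adjusted p = 0.0170) and the others did not.

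Replicate A differed from the vector libraries by an amount that moved with the GC content of the gene. Over 12345 genes divided into 5 equal bins by GC content, its median log2 CPM difference from the vector mean went from 0.51 in the bin with the least GC through 0.16, -0.10 and -0.39 to -0.83 in the bin with the most. Replicates B and C stayed between -0.036 and 0.090 in every bin. The vector libraries, each against the mean of the other vector libraries, had trends too. From the bin with the least GC to that with the most, vector replicate B went from -0.67 to 0.63. Vector replicate C went from 0.39 to -0.47 and vector replicate A from 0.29 to -0.14. Each of them enters the mean that the others are set against, so these trends are not independent of each other. A correction per library for GC content and exonic length was fitted on these same genes, so bins near 0 after it follow from the fit. No bin of any library was then farther from 0 than -0.13, that of replicate A with the most GC. For edgeR, an offset for GC content and exonic length came from a separate fit, over the genes tested and relative to the mean of all libraries. The common biological coefficient of variation was 0.411 with all libraries, 0.378 without replicate A and 0.352 with that offset.

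**Figure D2:**
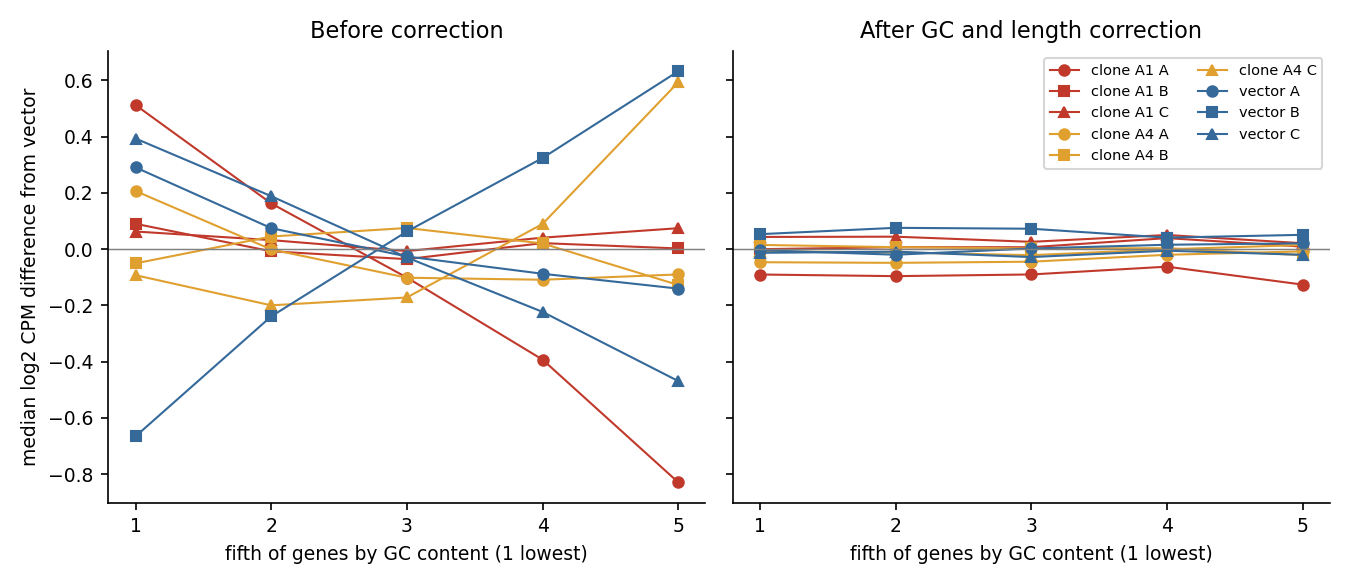
Median log2 CPM difference from vector in 5 equal bins of genes by GC content (1 lowest), before (left) and after (right) correction for GC content and length. Lines are libraries, coloured by group, and each vector library is set against the mean of the other vector libraries. Clone A1 replicate A runs from 0.51 down to -0.83 before correction. All lines lie near 0 after it, which follows from fitting the correction on these genes.

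With that offset, which was chosen after the data were seen, 163 of 21682 genes passed the threshold with all 3 clone A1 libraries (0.752%), 53 higher (0.244%) and 110 lower (0.507%). Without replicate A the offset fit gave 98 of 22976 (0.427%), 30 higher (0.131%) and 68 lower (0.296%). The 2 offset fits shared 79 genes, 25 higher and 54 lower. All 14 genes of the fit without an offset and all 12 of that without replicate A were among those of the matching offset fit. Of the 163, 148 had clone A1 and vector libraries that did not overlap in CPM, where 14.2% of all genes tested do not. Those named next were chosen after their values were seen.

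**Figure D3:**
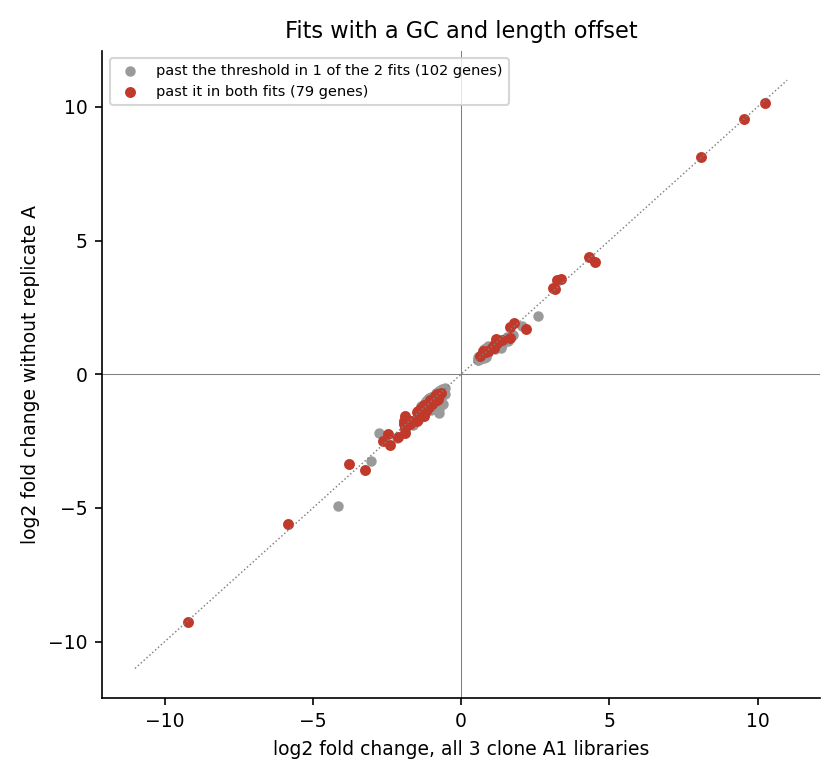
Log2 fold change of clone A1 against vector in fits with a GC and length offset, with all 3 clone A1 libraries (x axis) and without replicate A (y axis). Each point is a gene past the threshold in at least 1 of the 2 fits, red where it passed in both. The 79 red points and the grey ones lie along the dotted line of equal values, with no gene on opposite sides of 0.

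Genes that rose with the offset in both fits included KIF1A, the kinesin motor of axonal vesicle transport, at 8.69, 20.4 and 16.3 CPM against 0.173, 1.795 and 0.805 CPM (clone A1 against vector), with a log2 fold change of 4.31 ± 0.50 (edgeR adjusted p = 0.00162). It also differed from clone A4, by 4.19 ± 0.49 (edgeR adjusted p = 0.000764). SNAPC1, a subunit of the complex that activates snRNA promoters, was at 92.3, 47.5 and 67.5 CPM against 29.5, 16.7 and 30.9 CPM, a log2 fold change of 1.22 ± 0.16 (edgeR adjusted p = 0.00264). Every clone A1 library was above every vector library for KIF1A and SNAPC1. SFMBT2, a Polycomb group protein, rose by 1.03 ± 0.14 and differed from clone A4 by 1.53 ± 0.15 (edgeR adjusted p = 0.000117). The zinc finger genes ZNF283 (1.10) and ZNF850 (0.85) on chromosome 19 passed in both fits, while ZNF738 (1.16), ZFP14 (0.92), ZNF254 (0.86) and ZNF814 (0.78) passed with replicate A only.

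Genes that fell with the offset in both fits included TXNIP, A2M, FST, LTBP2 and SOX6. TXNIP, an inhibitor of thioredoxin and of glucose uptake, was at 1.94, 4.06 and 4.96 CPM against 12.7, 13.4 and 14.4 CPM, a log2 fold change of -1.88 ± 0.31 (edgeR adjusted p = 0.0124). A2M, the protease inhibitor alpha-2-macroglobulin, was at 3.77, 7.23 and 6.84 CPM against 20.9, 37.4 and 14.96 CPM, a log2 fold change of -1.92 ± 0.29 (edgeR adjusted p = 0.00879). For TXNIP and A2M the groups did not overlap. FST (follistatin, which binds activin) fell by 1.06 ± 0.17, LTBP2 (a matrix protein of the latent TGF-beta binding family) by 0.918 ± 0.13, and SOX6 (a transcription factor of cartilage) by 0.965 ± 0.13 on the log2 scale. MET, the receptor of hepatocyte growth factor, was at 96.0, 70.9 and 127 CPM against 236, 162 and 324 CPM and passed with replicate A, at -1.27 ± 0.23 (edgeR adjusted p = 0.0242), and not without it (0.112). SGK1, a kinase induced by glucocorticoids, was at 40.6, 40.9 and 26.5 CPM against 75.9, 80.5 and 85.2 CPM, at -1.23 ± 0.20 (edgeR adjusted p = 0.0145, and 0.0535 without replicate A).

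Some of these changes were particular to clone A1 by the test against clone A4. With the offset, 36 of the 163 genes also differed from clone A4 on the same side as from vector, 16 higher and 20 lower in clone A1, where 0.53% of all genes tested were higher and 0.337% lower in that contrast. The 2 contrasts share the clone A1 libraries. Among the 16 were SCEL (20.7, 12.9 and 7.22 CPM against 3.57, 1.62 and 3.56 CPM, clone A4 mean 2.23 CPM), a protein of the cornified envelope, and ONECUT1 (5.88, 4.54 and 5.03 CPM against 1.91, 1.93 and 1.81 CPM, clone A4 mean 1.96 CPM), a transcription factor. Neither passed against vector without replicate A. Among the 20 were BCR (0, 0 and 0.0235 CPM against 0.368, 1.35 and 0.6099 CPM, clone A4 mean 1.26 CPM), a regulator of small GTPases, and PLXDC2 (32.98, 39.7 and 27.04 CPM against 65.98, 69.5 and 85.7 CPM, clone A4 mean 83.9 CPM), a membrane receptor. In the other 3 genes, the difference from clone A4 went the other way. NCBP2 was higher than in vector and lower than in clone A4, and TIGAR and LINC02074 were lower than in vector and higher than in clone A4. LINC02074, a long noncoding RNA gene on chromosome 17, was at 1.41, 2.96 and 1.505 CPM against 15.7, 8.33 and 7.905 CPM, and at 0 CPM in all clone A4 libraries.

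The gene lists were read as counts of members at an unadjusted p under 0.05 in the fit without an offset, beside 3.24% higher and 4.27% lower over all genes tested and a median log2 fold change of -0.017. Without replicate A those shares were 2.31% and 3.8%. Of 28 tested p53 target genes, 0 were higher and 8 lower (median -0.36; 8 lower without replicate A, median -0.28). None passed the threshold without an offset, and ZMAT3 and TIGAR fell past it with the offset. ZMAT3, an RNA-binding protein induced by p53, was at 160.1, 145 and 139 CPM against 294, 233 and 307 CPM, a log2 fold change of -1.06 ± 0.16 with the offset (edgeR adjusted p = 0.008495). TIGAR, a phosphatase that slows glycolysis, was at 81.9, 57.1 and 64.3 CPM against 115, 83.1 and 109 CPM, at -0.65 ± 0.13 (edgeR adjusted p = 0.0366). Without replicate A, ZMAT3 still passed with the offset and TIGAR did not (edgeR adjusted p = 0.0321 and 0.0576). CDKN1A, the cell cycle inhibitor p21, had 43.8, 59.6 and 68.3 CPM against 78.5, 124 and 81.98 CPM, a log2 fold change of -0.73 ± 0.23 that did not pass (edgeR adjusted p = 0.385). For all 3 genes the groups did not overlap. CCNG1, MDM2 and RRM2B, the p53 targets with the highest CPM, had log2 fold changes of -0.057, -0.28 and -0.28, and their groups overlapped.

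Genes of axon guidance and neural adhesion, which guide growing neurites and hold cells together, had more lower than higher members. Of 52 tested, 2 were higher and 13 lower (median -0.31), and without replicate A 1 higher and 12 lower of 53 (median -0.33). CNTNAP2 alone passed the threshold, and with the offset UNC5C, SEMA3E and CDH13 did too. UNC5C, a netrin receptor, was at 3.77, 2.12 and 4.303 CPM against 11.1, 8.53 and 8.93 CPM, with a log2 fold change of -1.46 ± 0.29 with the offset. SEMA3E, a secreted semaphorin, was at 39.7, 23.7 and 17.2 CPM against 65.7, 33.9 and 63.1 CPM, and its replicate A value lay above vector replicate B. CDH13, a cadherin anchored without a cytoplasmic tail, was at 50.7, 60.2 and 53.6 CPM against 91.7, 80.1 and 86.4 CPM. Without replicate A, SEMA3E and not UNC5C or CDH13 passed with the offset (edgeR adjusted p = 0.0104, 0.0622 and 0.114). ROBO1, SEMA3C and NCAM1, the members with the highest CPM, had log2 fold changes of 0.077, 0.15 and -0.44 without an offset and did not pass.

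Clustered protocadherins, adhesion proteins encoded by arrays of similar exons on chromosome 5, had more higher than lower members. Of 52 tested, 7 were higher and 2 lower (median 0.32; 5 higher and 2 lower without replicate A). PCDHB8 was at 17.0, 14.6 and 12.3 CPM against 6.41, 5.13 and 5.03 CPM and PCDHB16 at 24.5, 17.2 and 13.9 CPM against 7.37, 7.57 and 7.12 CPM. Both passed with the offset, at 1.57 ± 0.30 (edgeR adjusted p = 0.0262) and 1.39 ± 0.26 (edgeR adjusted p = 0.0239), and not without replicate A (0.0672 and 0.0639). In clone A4 their means were 23.2 and 27.8 CPM. The array genes are close copies of each other, and counts rest on reads that align once. Of 35 tested collagen genes, 1 were higher and 6 lower (median -0.22), and without replicate A 1 higher and 3 lower (median -0.40). Of 37 other matrix genes, 0 were higher and 4 lower (median -0.26), and without replicate A 2 higher and 6 lower (median -0.13). COL11A1 and EFEMP1 were the called members. COL1A1, the main collagen of bone, was at 532, 949.7 and 992 CPM in clone A1, against 1271, 1505 and 1090.2 CPM with the empty vector, a log2 fold change of -0.64 ± 0.24 with all libraries and -0.40 ± 0.21 without replicate A, which did not pass.

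Of 32 tested genes in the list of ATF4 and amino acid stress genes, 0 were higher and 6 lower (median -0.33). Without replicate A, 3 were lower (median -0.27). None passed without an offset. With it ALDH1L2, a mitochondrial folate enzyme, fell by 1.14 ± 0.24 and XBP1, a transcription factor of the unfolded protein response, by 0.726 ± 0.16 on the log2 scale. Neither passed without replicate A (edgeR adjusted p = 0.144 and 0.141). ALDH1L2 was at 31.3, 28.4 and 23.9 CPM against 77.8, 30.6 and 75.9 CPM, so vector replicate B lay inside the clone A1 range. The 13 mRNAs encoded by mitochondrial DNA had a median of -0.27 (-0.17 without replicate A), with 4 lower, MT-ND5, MT-CYB and MT-ND4 among them (3 lower without replicate A), and none past the threshold. MT-CYB, cytochrome b, was at 6200.3, 7141 and 8104 CPM against 10685, 10682 and 9685 CPM, without overlap. Mitochondrial genes held 10.2 ± 0.532% of gene counts in clone A1 and 12.01 ± 1.29% in the vector libraries (SD, n = 3 each; exact permutation p = 0.1, the smallest possible, and 0.4 after adjustment over 8 RNA classes). Replicate A had the lowest share, 9.56%. Long noncoding, small nuclear and small nucleolar RNA classes had exact permutation p-values of 0.7, 0.6 and 1.

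The machinery that adds, reads and removes caps had few members past an unadjusted p of 0.05 beyond NCBP2. In cap synthesis and methylation 0 and 0 of 7 tested members were higher and lower at an unadjusted p under 0.05, in decapping 0 and 1 of 16, in the eIF4E and eIF4G families 0 and 2 of 13, in the nuclear exosome, its adaptors and Integrator 0 and 0 of 30, and in the snRNA promoter complex 1 and 0 of 12. Without replicate A the eIF4E and eIF4G families had 0 and 0, and the exosome, adaptor and Integrator genes 1 and 0. NUDT3, a Nudix enzyme with decapping activity, was at 24.95, 31.9 and 28.4 CPM against 58.1, 58.7 and 48.97 CPM, and passed with the offset alone, at -0.91 ± 0.16 (edgeR adjusted p = 0.01899, and 0.0549 without replicate A). XPO1, the export receptor, was at 1155, 941 and 1059 CPM against 805, 596 and 981 CPM, a log2 fold change of 0.41 ± 0.18 that did not pass. The RNAs that the complex is known to act on were counted in the same way. Of 20 tested small nuclear and other short RNAs, 1 were higher and 0 lower, and of 163 small nucleolar and Cajal body RNAs, 3 were higher and 0 lower. Leaving out replicate A gave 0 and 0 of 20 and 2 and 0 of 179. The list of small nuclear and other short RNAs has 34 members, of which 20 were tested. Reads with several alignments, 6.80% to 16.3% of reads over the 9 libraries, entered no count of these RNAs either. RNU4-2, the small nuclear RNA of the highest CPM, was at 4183, 2539 and 1791 CPM against 2258, 2953 and 1731 CPM, with replicate A the highest.

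Among the other lists, cytosolic ribosomal protein genes had 0 and 0 of 83 higher and lower at an unadjusted p under 0.05 (median -0.15), cell cycle and replication genes 3 and 1 of 50 (median 0.10), interferon and RNA sensing genes 2 and 2 of 30, sterol and fatty acid synthesis 0 and 1 of 30, hypoxia and glycolysis 2 and 1 of 27, and HOX genes 1 and 2 of 34. Glutamate receptors and ion channels had 0 and 4 of 26, secreted inflammatory and NF-kB genes 0 and 3 of 14, glucocorticoid-responsive genes 2 and 4 of 17, clock and PAR bZIP genes 2 and 3 of 18, TGF-beta and Hippo targets 3 and 1 of 23, and osteoblast genes 3 and 3 of 17. Noncoding hosts of small nucleolar RNAs had 0 and 1 of 20, GATA and retinoid genes 0 and 0 of 15, telomere genes 0 and 0 of 8, and abundant long noncoding RNAs 0 and 4 of 13. Without replicate A, cell cycle genes had 3 and 2 (median 0.20, against 0.0048 over all genes tested). The median of ribosomal protein genes was then -0.091. In that fit sterol and fatty acid synthesis had 1 and 1, hypoxia and glycolysis 3 and 0, and HOX genes 1 and 1. Inflammatory and NF-kB genes had 1 and 3, clock genes 1 and 2, TGF-beta and Hippo targets 3 and 2 and osteoblast genes 2 and 2. The other lists of this paragraph had the same counts higher and lower. Past the threshold without an offset were HLF (with all libraries) and LINC01029 among these lists. INSIG1, a sensor of sterols, was at 54.8, 64.8 and 45.1 CPM against 131, 109 and 91.5 CPM, and fell past the threshold with the offset and all libraries, at -1.005 ± 0.18. TNFRSF11B, the decoy receptor osteoprotegerin, was at 14.6, 13.6 and 17.2 CPM against 24.8, 30.2 and 28.8 CPM and fell by 1.03 ± 0.21 with the offset. LIF, a cytokine, was at 27.7, 57.1 and 62.4 CPM against 32.6, 41.9 and 24.5 CPM and rose by 0.73 ± 0.14 with the offset, with replicate A inside the vector range. Of these 3 genes, LIF alone passed the offset fit without replicate A.

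Mesenchymal markers were high in every library. Their summed level over 10 genes was 4375 to 5636 CPM in clone A1, against 6171 to 7614 CPM with the empty vector, with replicate A the lowest. VIM, SPARC and COL1A1 gave most of it, and TWIST1 had 0 counts in clone A1 and vector. Of these, 9 were tested and none passed the threshold (4 lower at an unadjusted p under 0.05, and 2 without replicate A). The 10 epithelial markers summed to 83.4 to 157 CPM in clone A1, against 125 to 221 CPM with the empty vector, most of it KRT8 and KRT18, and the 8 neural markers to 37.95 to 76.1 CPM in clone A1, against 89.6 to 98.3 CPM with the empty vector. Blood cell markers summed to 0.517 to 2.01 CPM in clone A1, against 0.605 to 1.46 CPM with the empty vector, with 7 to 9 of 10 at 0 counts in each library, and endothelial markers to 2.92 to 6.35 CPM in clone A1, against 5.904 to 9.92 CPM with the empty vector. The neural sums, mostly MAP2, were lower in every clone A1 library, beside the lower members among axon guidance and channel genes, and their part in those was not tested. Muscle and fat markers summed to 0.0269 to 0.259 CPM in clone A1, against 0.477 to 0.859 CPM with the empty vector. All libraries come from clones of 1 cell line, and bulk samples cannot tell fewer cells with a marker from less of its RNA per cell.

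Stretches of neighbouring genes also lay on 1 side of vector together. Segments were sought in clone A1 replicates B and C as runs where the median log2 fold change over 41 neighbouring genes was at least 0.4 from the median of all 12345 genes considered, in either direction. That search found 3, and since it used these values, they are a description. On chromosome 7, the 166 genes from 107923799 to 159030195, the end of the long arm, had a median of -0.50, and 159 of them were lower than vector, where 48.4% of all genes were. Without vector replicate A the search found only the part from 135926760 on, with 85 genes. The median over all 166 genes was then -0.40. On chromosome 2, the 58 genes from 186694060 to 201643570 had a median of 0.40, and 51 were higher, where 51.6% of all genes were. The search did not find this segment without vector replicate B, where the same genes had a median of 0.248. On chromosome 9, the 112 genes from 128411751 to 137590512 had a median of 0.39, and 104 were higher. It was not found with all 3 clone A1 libraries (median 0.252) or without vector replicate C (median 0.295). The strongest windows reached 0.42, -0.70 and 0.45 on chromosomes 2, 7 and 9. On the plot of running medians, much of chromosome 2 and of the long arm of chromosome 9 also lay above 0 outside these segments, short of 0.4.

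**Figure D4:**
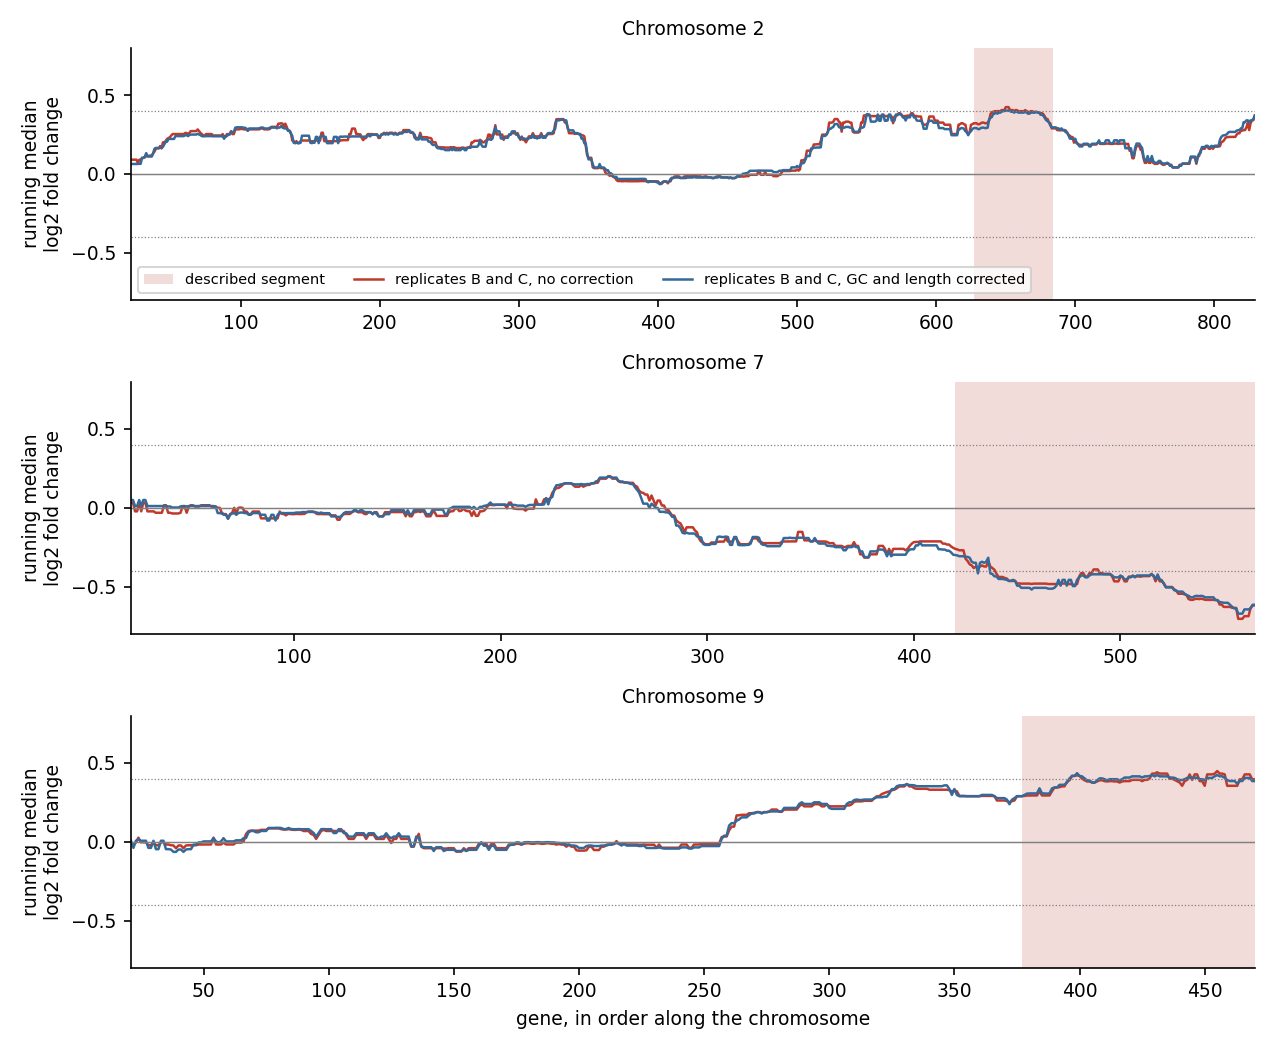
Running median of log2 fold change over 41 neighbouring genes on chromosomes 2, 7 and 9 for clone A1 replicates B and C against vector, without (red) and with (blue) correction for GC content and length. The x axis is the order of genes along the chromosome, dotted lines mark 0.4 and -0.4, and shading marks the described segments. Both lines run together, below 0 along the end of chromosome 7 and above 0 in the shaded parts of chromosomes 2 and 9.

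Replicate A, which the search did not use, gave a median log2 difference from the vector mean of 0.83 on the chromosome 2 segment, -0.40 on chromosome 7 and -0.15 on chromosome 9. The GC content of the segments differs, with medians of 40.5%, 45.6% and 58.5%. After correction for GC content and length, the clone A1 libraries gave 0.36, 0.30 and 0.44 on chromosome 2. On chromosome 7 they gave -0.47, -0.48 and -0.47, and on chromosome 9 0.39, 0.39 and 0.44. Replicate A thus lay close to the others. It is the same clone and is read against the vector libraries that the search used, so this is no separate check of the segments. The vector libraries, each against the mean of the other vector libraries, had corrected medians of -0.24, 0.13 and 0.055 on chromosome 2, 0.25, -0.23 and -0.016 on chromosome 7 and 0.27, -0.17 and -0.092 on chromosome 9. The vector libraries thus differed among themselves on these segments. Vector replicate A was the one farthest from clone A1 on chromosomes 2 and 7 and nearest to it on chromosome 9. Each vector clone has 1 library, so a difference between clones cannot be told apart from one between libraries. Clone A4 had corrected medians of 0.41, 0.43 and 0.41 on chromosome 2, -0.42, -0.47 and -0.40 on chromosome 7 and 0.42, 0.34 and 0.32 on chromosome 9. The median difference between clone A1 and clone A4 over these genes was -0.0050, -0.040 and -0.019, and clone A4 was on the same side of vector on all 3. Both clones are read against the same vector libraries.

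**Figure D5:**
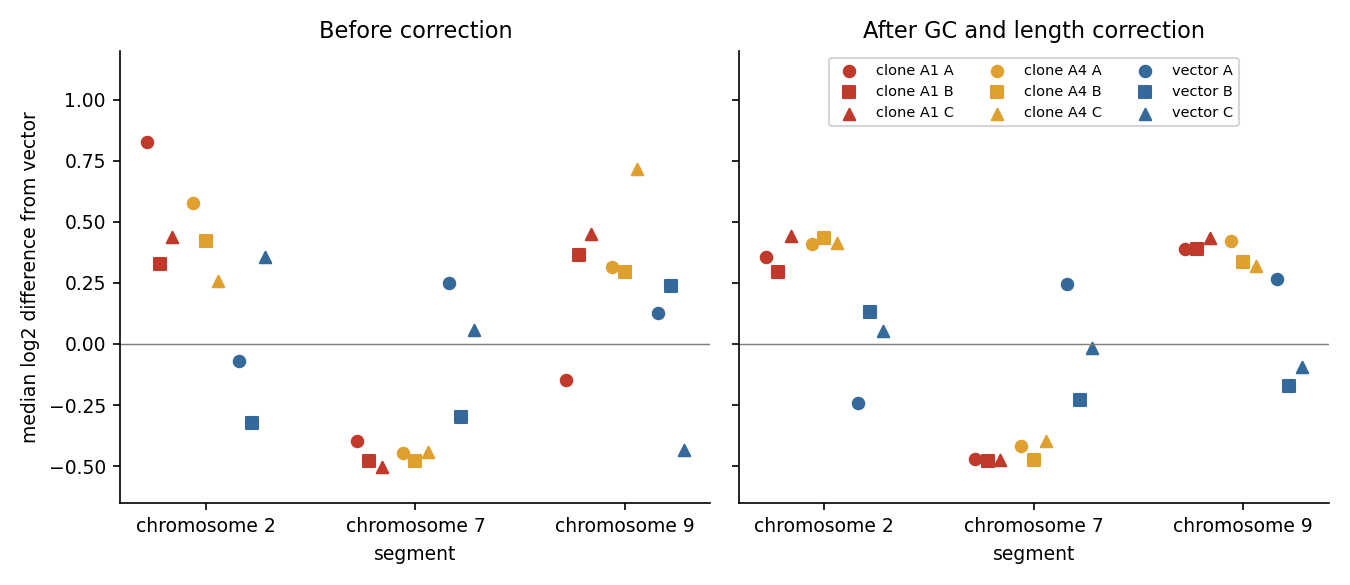
Median log2 difference from vector over the genes of each segment, by library, before (left) and after (right) correction for GC content and length. Colours are groups and shapes are replicates, and each vector library is set against the mean of the other vector libraries. After correction the clone A1 and clone A4 points lie together, above the vector points on chromosomes 2 and 9 and below them on chromosome 7.

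Among the genes of the chromosome 7 segment, CAV1 (caveolin), CALU (a calcium-binding protein of the secretory pathway) and CALD1 (caldesmon, which binds actin) had the highest CPM, with log2 fold changes of -1.16, -0.65 and -0.35. CALU was at 470.0 ± 6.64 CPM in clone A1, against 739 ± 52.7 CPM with the empty vector (SD, n = 3 each). CNTNAP2 lies in this segment and was the one gene of these segments past the threshold without an offset. With the offset and all libraries 10 of its 166 genes passed, all lower (6.02%). Of all 12345 genes considered, 1.19% passed, in either direction. Each segment was chosen by the values of its genes in these libraries. A larger share of calls on its side follows from that choice and is no support for the segment. The 10 genes include CNTNAP2, MET, INSIG1, LMBR1 (-0.75), CREB3L2 (-0.68), TMEM178B (-1.34) and ZYX (-0.66), which encodes the focal adhesion protein zyxin. In the chromosome 2 segment, HSPD1 (the mitochondrial chaperonin) and SF3B1 (a splicing factor) were among the 3 genes of highest CPM, with log2 fold changes of 0.66 and 0.46, and with the offset 2 of its 58 genes passed (3.45%), both higher, CASP8 among them. In the chromosome 9 segment, SET, RPL7A and SPTAN1 had the highest CPM, at 0.42, 0.13 and 0.23, and with the offset 2 of its 112 genes passed (1.79%), AIF1L (1.22) and TUBB4B (0.65). Without replicate A, CREB3L2, TMEM178B and TUBB4B passed in the offset fit, and MET, INSIG1, LMBR1, ZYX, CASP8 and AIF1L did not.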

How the data were processed

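RNA of 9 U2-OS libraries was sequenced after removal of ribosomal RNA (the molecule label says polyA RNA, which differs). The deposited files hold raw counts of reads per gene. Per the submitters' processing notes, STAR 2.7.1a and GRCh38 were used; the annotation is not given in the sources used here. Each file opens with 4 lines that name no gene, which held 44.5% to 63.6% of reads and were left out. The third column was read as the strand of the gene, since the fourth held 5.51% to 6.42% of stranded counts. Of 60609 gene identifiers, 60295 matched GENCODE 44 (GRCh38), the source of symbols and coordinates.

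The counts were tested with edgeR 4.0.16 (R 4.3.3): filterByExpr, TMM scaling, a robust quasi-likelihood fit over all 9 libraries, and Benjamini-Hochberg adjustment over all genes tested, with a threshold of 0.05. The contrast was clone A1 minus vector, and a second fit left out clone A1 replicate A. DESeq2 1.42.0 and limma 3.58.1 (voom) served as alternatives, beside RLE scaling, no filter, counts without strand, 6 libraries, a replicate block and leaving out each library. A loess offset per library for GC content and exonic length (span 0.5) was added after the data were seen. Statistics were tested on simulated data. The segment search used genes of average log2 CPM of at least 1 with a prior count of 2.

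Named were NCBP2, genes past the threshold in either fit, list members past it or among the 3 of highest CPM, and the genes of each segment by the same rule. Genes named from the offset fits, and list members named besides these, were chosen after their values were seen. The members and the 33 gene lists and 6 marker lists were chosen with earlier results of these data known. Results for some genes are not reported here.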

Additional observations from a re-analysis of the deposited data

Results flagged for a closer look

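For 5 genes, the change against vector in clone A1 differed from that in clone A4 by edgeR's test of the difference between the clones. The log2 difference, clone A1 minus clone A4, was 9.56 for H2BC8, 11.27 for H2AC8, 10.39 for ENSG00000280079, 3.86 for ADD2 and 3.42 for ENSG00000287424. For H2AC8 and ENSG00000280079, where clone A4 had 1 and 0 counts, the fitted size depends on the prior count and is no bound. All 3 clone A1 libraries lay above all 3 clone A4 libraries for these genes.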

How the results depend on the processing

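Against 14 genes with all libraries, the count was 274 by DESeq2, 297 by voom with library weights, 99 by both of these each with and without clone A1 replicate A, 312 with no filter, 7 with only the 6 libraries of clone A1 and vector, 163 with the GC and length offset, and 3 to 14 with 1 library left out. Against 12 genes without clone A1 replicate A, it was 160 by DESeq2, 228 by voom, 146 with no filter, 98 with the offset, and 1 to 22 with a further library left out. RLE scaling and counts without strand stayed within 1.5 times of both counts. NCBP2 had a log2 fold change of 1.44 (edgeR adjusted p = 0.0757) without regard to strand, and of 1.65 to 1.78 with 1 library left out. The 7 list members past the threshold became 32 by DESeq2, 41 by voom, 41 with no filter, 4 with 6 libraries, 29 with the offset and 3 to 6 with 1 library left out. Named genes that differed from clone A4 numbered 8 with the offset and 5 without it. The 3 segments became 11 with a window of 21 genes, 13 with a threshold of 0.3, 7 with all 3 clone A1 libraries, and 5 to 11 with 1 vector library left out. The chromosome 9 segment was not among those found with all 3 clone A1 libraries (median 0.252) or without vector replicate C (0.295), nor the chromosome 2 segment among those without vector replicate B (0.248). Without vector replicate A, 51.2% of the chromosome 7 segment was found. The cause was not tested for any of these. No called result changed direction, while the differences in the shares of long noncoding, histone, snRNA and snoRNA genes took either sign with 1 library left out.

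Same-letter libraries of clone A1 and vector had deviations correlated at 0.13, 0.16 and -0.10, and those of different letters at -0.25 to 0.22. With so few libraries this cannot decide whether the letters mark a shared batch, which the labels do not say. The common biological coefficient of variation was 0.387 with a replicate block and 0.411 without it. With the replicate block 38 genes passed, and 562 with the block and the offset. Without clone A1 replicate A the block and offset gave 199, and list members numbered 59 with block and offset.

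Clone A1 replicate A had the lowest depth, 29234022 counts in genes, and each group had 3 libraries.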
